A study of Mus musculus with 2 samples.

Results

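The genes described here make cholesterol and control its synthesis through the SREBP system in the newborn mouse adrenal gland. They are 30 genes of 55536 in the gene tables, taken as a pathway list, not for their values, and found by their symbol in the transcript tables made without an alignment, then joined to the gene tables by gene identifier. Of the 30, 22 code for enzymes between citrate and cholesterol, 7 for proteins of SREBP control, and 1, Mylip, for a ubiquitin ligase that marks lipoprotein receptors for breakdown. All 30 were found, each once, on 14 chromosomes, and 3 of them (Nsdhl, Ebp and Mbtps2) lie on the X chromosome.

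Cholesterol is built from acetyl-CoA by way of mevalonate, the prenyl diphosphates, squalene and lanosterol. SREBPs are transcription factors held in the membrane of the endoplasmic reticulum. When sterols are low, the escort protein SCAP carries them to the Golgi, where a pair of proteases releases the active part; when sterols are high, INSIG proteins hold SCAP back. The adrenal cortex uses cholesterol as the substrate for steroid hormones and takes it from lipoproteins as well as from its own synthesis.

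The glands came from male B6CASTF1/J mice at 4 days of age, the F1 cross of a laboratory strain with the wild-derived CAST strain, with no treatment or engineered allele in the labels. The series held 1 group of 2 biological replicates, which were compared with each other because no second condition exists. Total RNA was reduced in ribosomal RNA, and each library was made from 300 ng with ERCC spike-ins. Levels are given in TPM, a count scaled by transcript length to a fixed total per library, as mean ± SD over the 2 libraries.

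The gene tables held 30292851 counts in replicate 2 and 32231301 in replicate 1, of which the 30 genes took 0.203% (95% Wilson interval 0.201 to 0.205) in replicate 2 and 0.220% (0.218 to 0.222) in replicate 1. The labelled tissue was checked by marker lists: the 6 adrenal cortex markers summed to 6495 TPM in replicate 2 and 8468 TPM in replicate 1, and the 5 chromaffin cell markers to 1904 TPM in replicate 2 and 2108 TPM in replicate 1. Replicate 2 stood apart in genes of other tissues. All 10 liver markers were higher there, with a sum of 5580 TPM in replicate 2 against 215 TPM in replicate 1, as were all 6 erythroid markers (3347 against 1829 TPM) and all 6 skeletal muscle markers (1036 against 562 TPM). All 6 cortex and all 5 chromaffin markers were lower in replicate 2 on scaled counts, by a median log2 ratio of -0.38 and -0.25. The 4 stromal markers were also higher in replicate 2 (1235 against 843 TPM), while the 5 adipocyte markers summed to 822 against 670 TPM and the 4 kidney markers to 2.11 against 5.57 TPM. The part of these tissues in the values below was not tested. In bulk tissue, fewer cells of a type and less RNA per cell cannot be told apart.

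SREBP binds sterol regulatory elements, often beside CCAAT boxes bound by NF-Y. The promoters of Hmgcs1, Srebf2 and Insig1 and those of the SREBP-1a (upstream) and SREBP-1c (downstream) first exons of Srebf1 are shown. The main transcripts of Hmgcs1, Srebf2 and Insig1 and the SREBP-1a and SREBP-1c first exons described below start near them. Other transcripts of Srebf1 and Srebf2, which also count toward the gene levels, start elsewhere. The sequences are from RefSeq on GRCm38.p6 (the coordinates of mm10), 5′ to 3′ on the strand of the gene, and end before the first transcribed base in either annotation. Capitals mark TCACCCCAC with at most 1 mismatch, the E-box CACGTG and CCAAT, on either strand, and no marked matches overlap. Positions are counted from the RefSeq start, with negative numbers before it.
Hmgcs1, chr13:119690101-119690350, + strand: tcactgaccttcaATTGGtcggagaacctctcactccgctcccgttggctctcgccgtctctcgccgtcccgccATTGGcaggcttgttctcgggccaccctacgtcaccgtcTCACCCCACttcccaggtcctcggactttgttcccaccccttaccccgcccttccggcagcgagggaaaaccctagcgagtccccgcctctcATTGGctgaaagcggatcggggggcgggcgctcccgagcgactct
Srebf2, chr15:82147019-82147180, + strand: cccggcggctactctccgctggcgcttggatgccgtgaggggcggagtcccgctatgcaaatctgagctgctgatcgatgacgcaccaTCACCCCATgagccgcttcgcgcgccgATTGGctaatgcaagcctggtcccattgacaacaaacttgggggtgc
Insig1, chr5:28071162-28071362, + strand: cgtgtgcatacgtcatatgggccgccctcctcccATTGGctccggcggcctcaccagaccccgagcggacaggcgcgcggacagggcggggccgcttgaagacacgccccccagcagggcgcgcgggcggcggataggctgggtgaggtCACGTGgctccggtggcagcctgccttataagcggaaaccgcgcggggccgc
Srebf1, upstream promoter, chr11:60220628-60220877, - strand: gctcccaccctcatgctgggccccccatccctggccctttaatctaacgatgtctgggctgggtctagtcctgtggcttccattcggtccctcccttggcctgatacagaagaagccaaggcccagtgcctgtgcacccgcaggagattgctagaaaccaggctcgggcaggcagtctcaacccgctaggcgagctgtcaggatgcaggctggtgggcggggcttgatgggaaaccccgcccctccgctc
Srebf1, downstream promoter, chr11:60210472-60210721, - strand: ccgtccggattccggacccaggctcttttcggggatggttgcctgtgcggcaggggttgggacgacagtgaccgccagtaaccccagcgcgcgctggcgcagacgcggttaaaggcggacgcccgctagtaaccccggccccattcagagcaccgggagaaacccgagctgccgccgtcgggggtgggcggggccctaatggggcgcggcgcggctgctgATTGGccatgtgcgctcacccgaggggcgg

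The Hmgcs1 window held the sterol element without mismatch at -137 with CCAAT boxes at -237, -176 and -45. Srebf2 held it with 1 mismatch at -162, with a CCAAT box at -135. Insig1 held CACGTG at -101 and a CCAAT box at -216. The downstream Srebf1 promoter held a CCAAT box at -30, and the upstream one shown held none of the 3 motifs. A further Srebf1 window, not shown, lies upstream of both at the start of the non-coding Srebf1-204. It held a CCAAT box at -166.

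RefSeq windows, each 300 bases around a gene start, were found for 27 of the 30 genes, 35 windows in all, with none for Fdps, Fdft1 and Sqle. The exact sterol element was in 1 of these 35 windows (2.86%), against 0.551% of 32851 windows of all genes. With at most 1 mismatch it was in 6 windows (17.1%, those of Acat2, Hmgcs1, Hsd17b7, Mylip, Nsdhl and Srebf2), against 9.82% of all windows. CACGTG was in 6 windows (17.1%), of 5 genes (Dhcr7, Hsd17b7, Insig1, Sc5d and Scap), against 7.15% of all. Windows of the same gene can overlap, and both Scap windows hold the same CACGTG site. The looser E-box CANNTG was in 28 windows (80.0%) against 72.3%, CCAAT in 23 (65.7%) against 37.4%, and the GC box GGGCGG in 27 (77.1%) against 35.7%. These are letter matches and were not tested as binding sites.

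Of the 30 genes, 29 had a mean of 1 TPM or more, taken here as detected, against 60.4% of all 22028 protein-coding genes. The median of the 30 was 14.4 TPM, with 15.98 TPM in replicate 2 against 11.6 TPM in replicate 1, beside a median of 11.5 TPM over the 13305 detected protein-coding genes. The members spanned a wide range: 18 lay above that median and 12 below it, and the highest detected member had 48.2 times the level of the lowest. Acly, Dhcr7, Hmgcs1 and Mbtps1 were among the top 10% of detected protein-coding genes.

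The genes of the early steps held both the highest and the lowest levels of the enzymes. Acly, the ATP citrate lyase that makes cytosolic acetyl-CoA (ENSMUSG00000020917.17, chr11:100476353-100528000, mm10), had 149 TPM in replicate 2, against 177 TPM in replicate 1 (163 ± 20.02, SD, n = 2). Hmgcs1, the cytosolic HMG-CoA synthase (ENSMUSG00000093930.2, chr13:119690379-119708260), had 74.6 TPM in replicate 2 and 67.1 in replicate 1 (70.9 ± 5.32). Acat2, the cytosolic thiolase that joins acetyl-CoA units before it, had 20.4 TPM in replicate 2 and 17.9 in replicate 1. For each of these genes the gap between the libraries was smaller than the gaps between the genes.

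The next genes of the mevalonate route lay below the median of detected protein-coding genes. Mevalonate kinase, Mvk, had 8.36 TPM in replicate 2, against 8.04 TPM in replicate 1, and phosphomevalonate kinase, Pmvk, had 5.27 TPM in replicate 2 and 6.29 in replicate 1. Mvd, the decarboxylase that yields isopentenyl diphosphate, had 3.23 TPM in replicate 2 and 3.54 in replicate 1, the lowest mean of the detected members. Its range did not overlap with that of Pmvk. It did overlap with that of Hsd17b7 (3.72 TPM in replicate 2 and 3.50 in replicate 1). In alignment-free TPM the mean of Hsd17b7 (5.73) was below that of Mvd (5.85). Idi1, the isomerase that makes dimethylallyl diphosphate, had 7.24 TPM in replicate 2 and 6.26 in replicate 1. Its paralog Idi2, known in humans as a skeletal muscle form, had 0 counts in both libraries, which allows up to 0.0990 CPM in replicate 2 and 0.0931 CPM in replicate 1 (3 counts, counting error only). In the alignment-free tables Idi2 was listed at 0.079 TPM in replicate 2 and 0.048 TPM in replicate 1.

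At the branch of the prenyl diphosphates, Fdps, which makes farnesyl diphosphate, had 28.1 TPM in replicate 2, against 29.6 TPM in replicate 1 (28.9 ± 1.04). Ggps1, which extends it to geranylgeranyl diphosphate for protein prenylation, had 16.3 TPM in replicate 2 and 14.0 in replicate 1. Fdft1, the squalene synthase that commits farnesyl diphosphate to sterols, had 18.5 TPM in replicate 2 and 14.5 in replicate 1. Fdps was above both enzymes that draw on its product in each library, with log2 ratios to Fdps of -0.81 ± 0.30 for Fdft1 and -0.94 ± 0.21 for Ggps1. Without length scaling the counts of the 3 genes were close, with log2 ratios of 0.07 and -0.09.

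Squalene epoxidase and lanosterol synthase, the enzymes that follow, were lower still. Sqle, a rate-limiting oxygen-using step, had 10.9 TPM in replicate 2, against 8.74 TPM in replicate 1. Lss, the cyclase that closes the sterol rings, had 7.38 TPM in replicate 2 and 9.08 in replicate 1. Their ranges overlapped.

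Of the 9 enzymes between lanosterol and cholesterol, Dhcr7 stood above the rest. Dhcr7, the reductase of the last step in one arm of the pathway (ENSMUSG00000058454.15, chr7:143823145-143848410), had 65.9 TPM in replicate 2 against 102 TPM in replicate 1 (83.9 ± 25.4). The other 8 had means between 3.61 and 18.1 TPM. Msmo1, the methyl sterol oxidase, had 15.7 TPM in replicate 2 and 20.4 in replicate 1, and Ebp, the sterol isomerase, had 16.9 TPM in replicate 2 and 15.8 in replicate 1. Sc5d, the desaturase after Ebp, had 14.7 TPM in replicate 2 and 10.7 in replicate 1. The median of the 9 was 12.7 TPM.

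Cyp51, Nsdhl and Hsd17b7, which act early on lanosterol, lay below the median of detected protein-coding genes. Cyp51, the cytochrome P450 that starts demethylation, had 8.85 TPM in replicate 2, against 6.49 TPM in replicate 1. Nsdhl and Hsd17b7 work with Msmo1 in removing methyl groups. Nsdhl had 9.04 TPM in replicate 2 and 7.44 in replicate 1, and Hsd17b7 had 3.72 TPM in replicate 2 and 3.50 in replicate 1.

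The sterol reductase step after Cyp51 has a pair of enzymes, Lbr, which is also the lamin B receptor of the nuclear envelope, and Tm7sf2. Lbr had 17.3 TPM in replicate 2, against 12.2 TPM in replicate 1, and Tm7sf2 (chr19:6062821-6068373) had 8.90 TPM in replicate 2 and 4.58 in replicate 1. Lbr was the higher in each library, with log2 ratios of 0.96 in replicate 2, against 1.41 in replicate 1 (1.19 ± 0.32). The alignment-free tables gave a larger ratio, 2.05 ± 0.56.

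**Figure D1:**
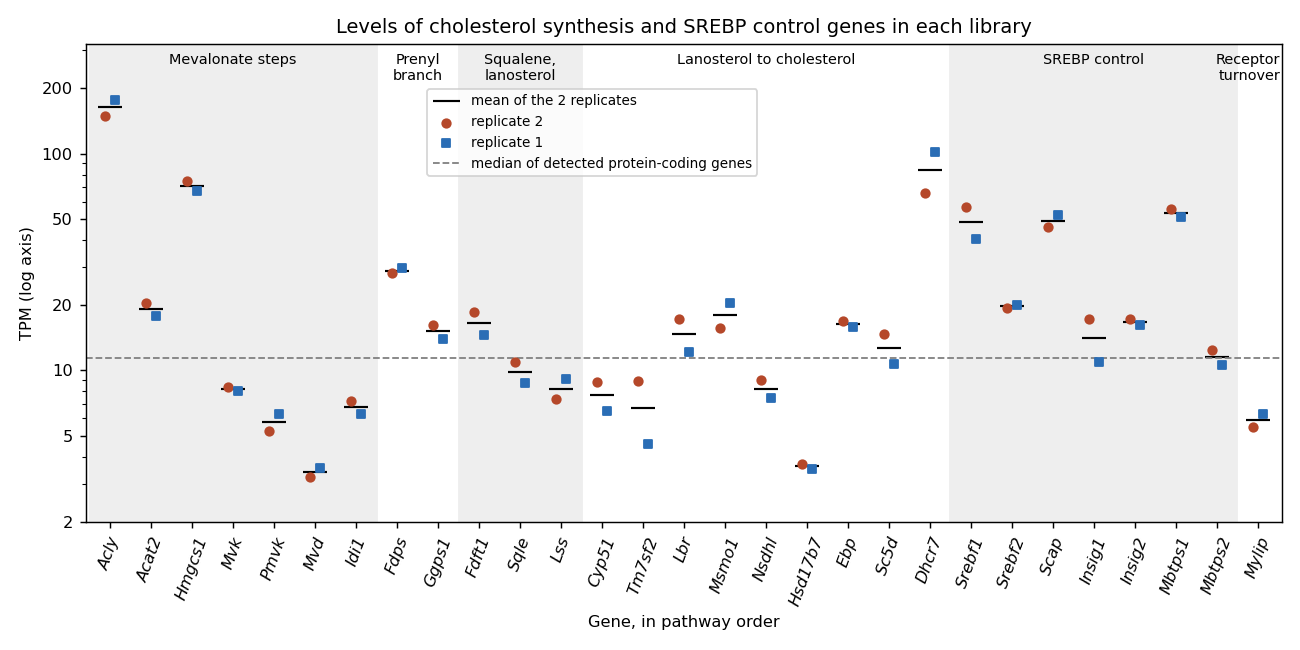
TPM of the 29 detected genes in pathway order on a log axis, with replicate 2 as circles, replicate 1 as squares, the mean as a bar and the median of detected protein-coding genes (11.5 TPM) as a dashed line. Acly, Hmgcs1, Dhcr7, Srebf1, Scap and Mbtps1 stand well above the line, and the kinases, Mvd and Hsd17b7 below it.

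The SREBP control genes had a median of 19.7 TPM, and all 7 were detected. Scap, the escort of the SREBPs, had 46.1 TPM in replicate 2, against 52.0 TPM in replicate 1. Mbtps1, the site-1 protease of the Golgi, had 55.4 TPM in replicate 2 and 51.1 in replicate 1 (53.3 ± 3.06), and Mbtps2, the site-2 protease that makes the second cut, had 12.5 TPM in replicate 2 and 10.6 in replicate 1. The first protease was above the second in both libraries.

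Srebf1, whose SREBP-1c form acts mainly on fatty acid genes (ENSMUSG00000020538.15, chr11:60199089-60222581), had 56.7 TPM in replicate 2, against 40.4 TPM in replicate 1 (48.5 ± 11.5). Srebf2, which acts mainly on cholesterol genes (ENSMUSG00000022463.8, chr15:82147181-82205379), had 19.4 TPM in replicate 2 and 20.1 in replicate 1 (19.7 ± 0.51). Srebf2 was below Srebf1 in each library, with log2 ratios of -1.55 in replicate 2, against -1.01 in replicate 1 (-1.28 ± 0.38). Over protein-coding transcripts only, the ratio was -0.76 ± 0.01. The microRNA gene Mir33, which lies within an intron of Srebf2, was listed at 0 TPM in both libraries of the gene tables. So were the other microRNA genes that overlap members, Mir7116, Mir6921 and Mir6922. Whether these libraries can count microRNA genes was not tested.

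The INSIG genes were at like levels. Insig1, itself a target of SREBP (ENSMUSG00000045294.11, chr5:28071363-28078662), had 17.3 TPM in replicate 2, against 10.98 TPM in replicate 1. Insig2 had 17.2 TPM in replicate 2 and 16.1 in replicate 1. The log2 ratio of Insig1 to Insig2 was 0.01 in replicate 2, against -0.55 in replicate 1, so no order of this pair held in both libraries on this scale. In alignment-free TPM, Insig1 was below Insig2 in both libraries (-0.09 in replicate 2 and -0.17 in replicate 1), and in counts without length scaling it was above it in both (0.47 in replicate 2 and 0.07 in replicate 1). Mylip, a target of the sterol-sensing LXR receptors, had 5.49 TPM in replicate 2 and 6.29 in replicate 1.

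When the 30 genes were ordered by mean TPM, 23 of the 29 neighbouring pairs overlapped between the libraries. The 6 pairs without overlap were Acly above Dhcr7, Hmgcs1 above Mbtps1, Srebf1 above Fdps, Fdps above Srebf2, Pmvk above Hsd17b7 and Mvd above Idi2. Over protein-coding transcripts only, Srebf1 (28.7 TPM in replicate 2 and 25.5 in replicate 1) and Fdps (25.4 in replicate 2 and 27.3 in replicate 1) overlapped. In alignment-free TPM these genes were apart, with 97.2 against 54.4 in replicate 2 and 100.2 against 60.4 in replicate 1. The 11 genes with means between 10 and 20 TPM formed an unbroken run in which no neighbours were apart.

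Srebf1 is read from alternative first exons that give SREBP-1a and SREBP-1c, and the annotated starts of these lie 10139 bases apart. Srebf1-201, whose first exon carries 91 coding bases and corresponds to SREBP-1a, had 19.0 TPM in replicate 2, against 17.5 TPM in replicate 1. Transcripts with the first exon of SREBP-1c, which carries 19 coding bases, had 8.57 TPM in replicate 2 and 6.21 in replicate 1 (Srebf1-207, with Srebf1-208 at 0). The log2 ratio of Srebf1-201 to Srebf1-207 was 1.15 in replicate 2, against 1.49 in replicate 1 (1.32 ± 0.24). These transcripts also differ at the 3′ end: Srebf1-207 is annotated to end at 60200463, short of the end of Srebf1-201 at 60199089. The values are for whole transcripts, so use of the first exons alone was not measured.

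In the alignment-free tables the transcripts of these starts were closer. The transcript with the SREBP-1a exon had 25.9 TPM in replicate 2, against 22.7 TPM in replicate 1. Those with the SREBP-1c exon had 23.7 TPM in replicate 2 and 24.0 in replicate 1 when Srebf1-208 was included. The log2 ratio of Srebf1-201 to Srebf1-207 was 0.45 ± 0.05 there. An additional start, that of the non-coding Srebf1-204, upstream of both, had 12.5 TPM in replicate 2 and 6.06 in replicate 1 in the alignment-based tables and 0 in the alignment-free ones.

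**Figure D2:**
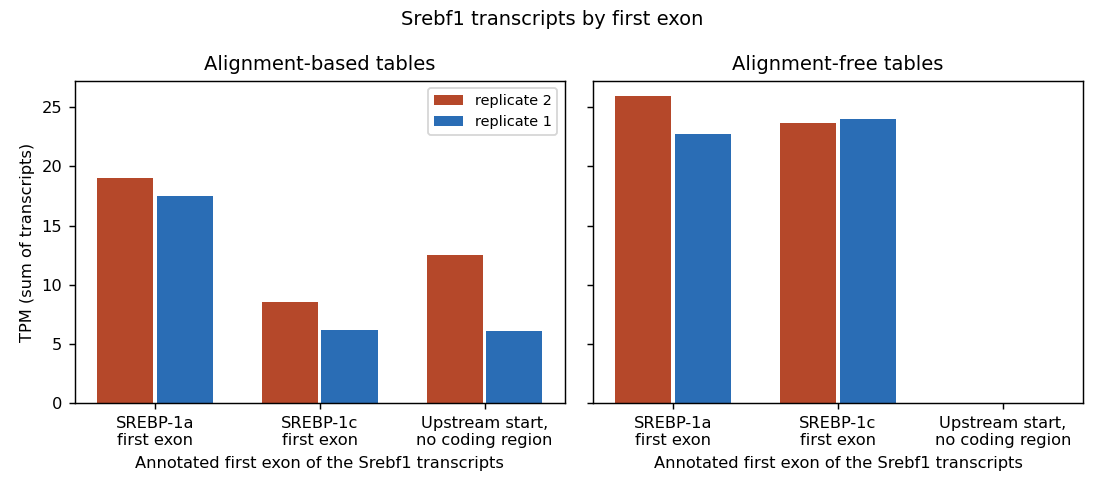
Summed TPM of Srebf1 transcripts by annotated first exon in the alignment-based tables (left) and the alignment-free tables (right), 1 bar per library, with replicate 2 left of replicate 1. The transcript with the SREBP-1a exon is above those with the SREBP-1c exon in both alignment-based libraries. It is near them in the alignment-free ones, where the upstream start is at 0. The values are for whole transcripts, which also differ at the 3′ end.

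Srebf1 was also the most divided of the control genes by transcript. In the alignment-based tables, Srebf1-201 took 33.5% of the gene's TPM in replicate 2 and 43.3% in replicate 1, Srebf1-204 took 22.03% in replicate 2 and 15.0% in replicate 1, Srebf1-207 took 15.1% in replicate 2 and 15.4% in replicate 1, and the non-coding Srebf1-210 took 11.9% in replicate 2 and 8.15% in replicate 1. The non-coding Srebf1-206 passed 10% in the alignment-free tables alone, with 11.6% in replicate 2 and 17.4% in replicate 1.

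Srebf2 and the INSIG genes rested mainly on 1 coding transcript each. Srebf2-201 took 72.7% of Srebf2 in each library, with up to 12.7% for the coding Srebf2-202 in replicate 2 and up to 13.9% for the retained-intron Srebf2-204 in replicate 1. Insig1-201 took 91.2% in replicate 2 and 92.3% in replicate 1 of Insig1, and the rest went to the retained-intron Insig1-202. Insig2 was split between Insig2-201, with 62.3% in replicate 2 and 53.8% in replicate 1, and the short Insig2-212, with 17.3% in replicate 2 and 34.5% in replicate 1, which was near 0 in the alignment-free tables. There the retained-intron Insig2-205 took 26.1% in replicate 2 and 13.7% in replicate 1, and the short Insig2-207 took 10.2% in replicate 2 and 0% in replicate 1.

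Over the 29 detected genes, protein-coding transcripts took a median of 90.04% of the TPM in the alignment-based tables. The share there was lowest for Lss, where they took 32.7% and transcripts annotated with a retained intron 36.2%. The rest went mainly to the short non-coding Lss-202, with 20.6% in replicate 2 and 41.5% in replicate 1. Retained-intron transcripts took over 10% in 10 genes, with a median over all 29 of 5.97%. Mvd differed between the tables: the coding Mvd-201 took 100% in the alignment-based tables, while a transcript annotated for nonsense-mediated decay took 77.8% on average in the alignment-free ones. Lss differed as well: in the alignment-free tables Lss-202 was at 0 in both libraries, and retained-intron transcripts took 71.2% on average.

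The main transcript was the same in both libraries for 28 of the 29 genes, with Lss the exception, and for 25 in the alignment-free tables. The 2 kinds of table named the same main transcript for 19 genes. Among the 10 that differed, Hmgcs1-202 took 73.6% of Hmgcs1 in replicate 2 and 75.0% in replicate 1 in the alignment-based tables, against 22.2% in replicate 2 and 14.0% in replicate 1 in the alignment-free ones, where Hmgcs1-201 took 71.4% in replicate 2 and 77.8% in replicate 1. Mbtps1-201 took 66.8% in replicate 2 and 74.2% in replicate 1 of Mbtps1 in the alignment-based tables and 4.74% in replicate 2 and 5.15% in replicate 1 in the alignment-free ones. Summed over transcripts, the alignment-free TPM of a gene was 1.82 times the gene table TPM at the median of the members, beside 1.86 for detected protein-coding genes, with Lbr (3.18) furthest from it.

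**Figure D3:**
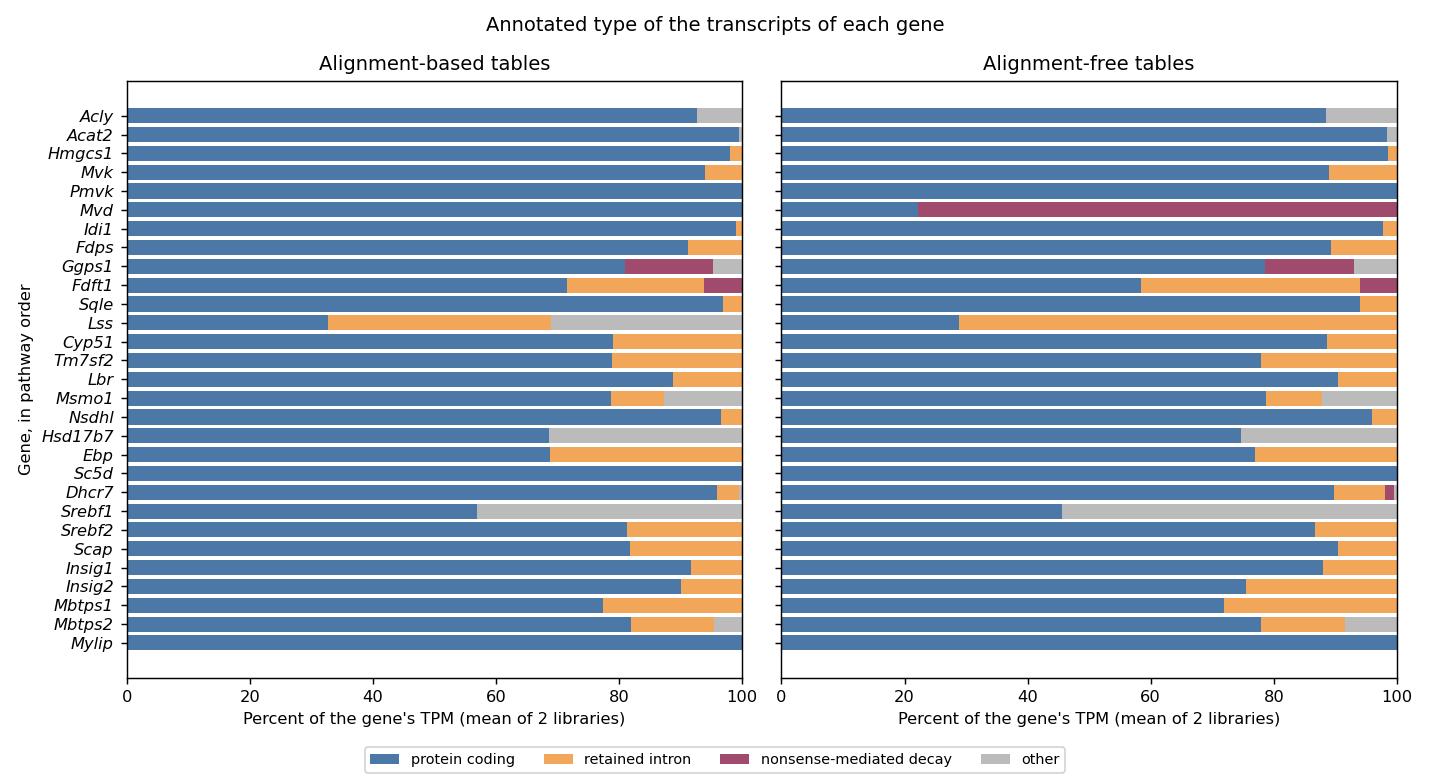
Percent of each gene's TPM in transcripts annotated as protein coding, retained intron, nonsense-mediated decay or other, as means of the 2 libraries, in alignment-based (left) and alignment-free tables (right). Coding transcripts take most of the TPM in all genes but Lss in the left panel. In the right one they do so in all but Lss, Mvd and Srebf1 (45.6%).

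In scaled counts, no member differed by over 2-fold between the libraries. In alignment-free TPM, Tm7sf2 had 16.5 TPM in replicate 2 against 7.66 TPM in replicate 1, which is over 2-fold. An exact binomial test, two-sided, set each gene's counts in the libraries against their TMM sizes, with Benjamini-Hochberg adjustment over 18160 genes. It compares these libraries and not conditions. None of the 29 tested members passed an adjusted p of 0.05 with a difference over 2-fold, against 3.98% of all tested genes, and none did with DESeq2 size factors. Without an adjustment or fold minimum, 18 of the 29 (62.1%) had p under 0.05, against 41.2% of all tested genes. All 29 are detected genes, while the tested genes include some below 1 TPM.

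With a limit of 1.5-fold, 2 members passed, against 7.72% of all genes. Tm7sf2 had 297 counts in replicate 2 against 182 in replicate 1, a log2 ratio of 0.76 (95% interval 0.49 to 1.04, adjusted p = 1.5e-07). Dhcr7 had 4223 counts in replicate 2 against 7164 in replicate 1, a log2 ratio of -0.70 (-0.76 to -0.65, adjusted p = 9.5e-142).

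At any fold, 13 of the 29 passed the adjusted p (44.8%), against 33.5% of all genes. Higher in replicate 2 were 7 members, Fdft1, Sqle, Cyp51, Tm7sf2, Lbr, Srebf1 and Insig1 (24.1%, against 15.9% of all genes). Insig1 led them after Tm7sf2, with 1255 counts in replicate 2 against 890 in replicate 1 and a log2 ratio of 0.55 (0.43 to 0.68, adjusted p = 2.7e-17). Lower in replicate 2 were 6 members, Acly, Msmo1, Dhcr7, Srebf2, Scap and Mylip (20.7%, against 17.6% of all genes). Acly had 16925 counts in replicate 2 against 22559 in replicate 1 and a log2 ratio of -0.36 (-0.38 to -0.33, adjusted p = 9.2e-129).

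The members did not share 1 direction. The median log2 ratio of the 29 was 0.07, beside -0.02 for all detected genes, with 17 above 0 and 12 below. By step, the median was -0.21 for the 7 tested mevalonate genes, 0.16 for the 3 squalene and lanosterol genes, 0.18 for the 9 enzymes after lanosterol and 0.03 for the 7 control genes. Beside these differences stand the higher liver, erythroid and muscle marker sums and the lower cortex sums of replicate 2 given above, whose part was not tested.

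**Figure D4:**
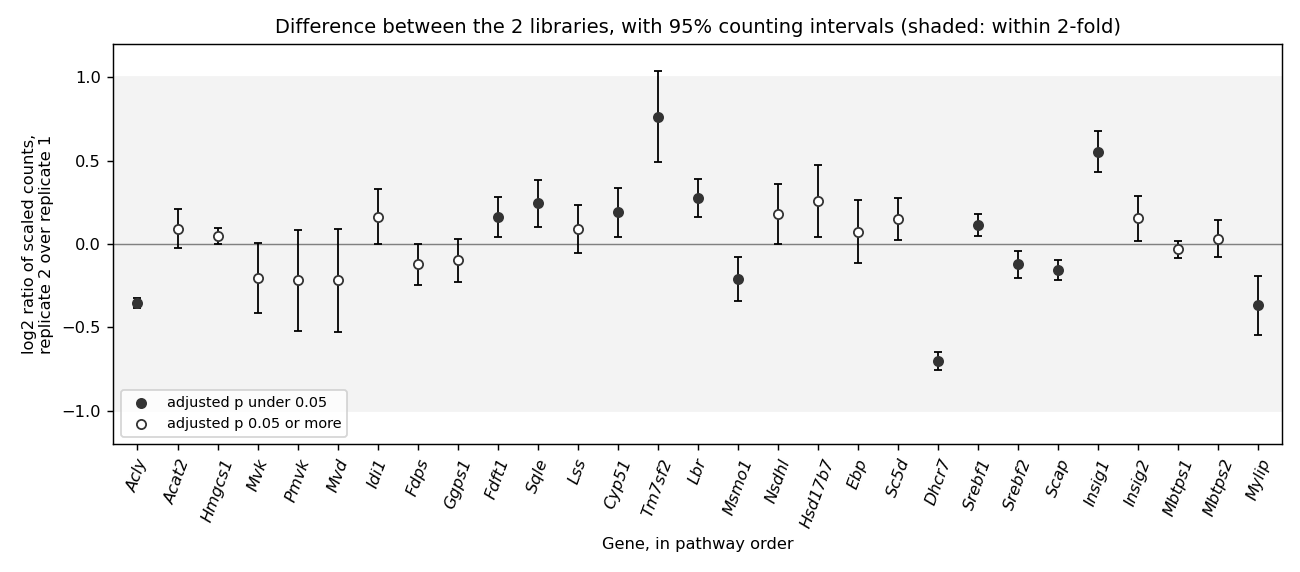
Log2 ratio of TMM-scaled counts, replicate 2 over replicate 1, of the 29 tested genes with 95% counting intervals, with filled points at an adjusted p under 0.05 and the band within 2-fold shaded. Tm7sf2 (0.76) and Insig1 (0.55) lie furthest up and Dhcr7 (-0.70) furthest down, and every point lies inside the band.

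The TPM and the scaled counts did not always give the same size of difference. For Srebf1, the log2 ratio was 0.49 in TPM and 0.11 in scaled counts, and the gene's effective length in the table was 2165 bases in replicate 2 against 2641 in replicate 1. For Lss it was -0.30 in TPM and 0.09 in scaled counts, with effective lengths of 3541 bases in replicate 2 and 2538 in replicate 1. The sign differed between the scales for 4 genes, Mvk, Ggps1, Lss and Mbtps1, none of which passed the adjusted p.

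Neighbouring pathways were set beside the members. Among 14 other sterol genes found of 15 listed, 13 were detected, with a median of 13.2 TPM. Those at high levels included Pgrmc1, a heme-binding partner of sterol P450 enzymes (129 TPM), and the LXR receptor gene Nr1h2 (42.5 TPM). Ch25h, the cholesterol 25-hydroxylase, was lowest with 0 counts in replicate 2 and 2 in replicate 1. At any fold, 1 of the 13 tested was higher in replicate 2 (15.9% of all genes) and 4 were lower (17.6% of all genes).

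Genes that use prenyl diphosphates had a median of 16.2 TPM, and all 10 were detected. Fnta, the subunit shared by both CaaX prenyltransferases, had 34.1 TPM, Rabggtb of the Rab prenyltransferase 29.7 TPM, and Pggt1b 19.9 TPM. Pdss1, which makes the side chain of coenzyme Q, was lowest at 4.83 TPM. At any fold, 1 of the 10 was higher in replicate 2 and 3 were lower, beside the same 15.9% and 17.6% of all genes.

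Fatty acid genes known as SREBP-1 targets had a median of 38.0 TPM over 14 genes, all detected, beside 14.4 TPM for the 30 members. This difference was not tested. Scd2 (169 TPM) and Fads2 (153 TPM), both fatty acid desaturases, and Me1 (144 TPM), the malic enzyme that supplies NADPH, were the highest, and Elovl6 was the lowest at 7.35 TPM. Past the adjusted p at any fold, 2 of the 14 were higher in replicate 2, against 15.9% of all genes, and 8 were lower, against 17.6%. Scd1, a desaturase prominent in liver, was the only one over 2-fold in scaled counts, with a log2 ratio of 1.10. It had 56.3 TPM in replicate 2 against 36.8 TPM in replicate 1 in the gene tables, and 102.7 TPM in replicate 2 against 64.8 TPM in replicate 1 in the alignment-free ones, both under 2-fold.

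**Figure D5:**
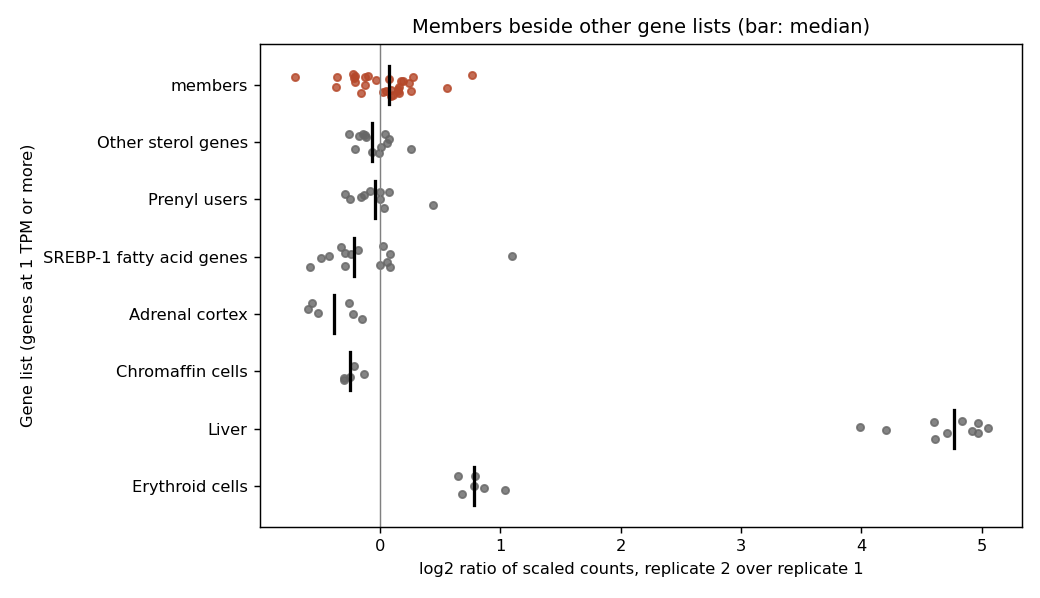
Log2 ratio of scaled counts, replicate 2 over replicate 1, of each gene at 1 TPM or more in the members and in 7 other lists, with the list's median as a bar. The members lie around 0 (median 0.07), the adrenal cortex markers below it (-0.38) and the liver markers far above it (4.77).

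Some member sequences are shared with other genes, so their counts are less certain. Of the 100-base stretches of Acat2 transcripts, 28.9% also occur in Acat3 transcripts. The share was 27.0% for Mbtps2, with Yy2, and 21.4% for Fdps, with Gm43738, Gm3571 and Gm5873. It was 19.0% for Idi2, with Gm9745, and 15.8% for Idi1, with Gm13502 and Gm35570. Tm7sf2 shares 7.92% with its neighbour Vps51 on the same strand, which had 28.4 TPM in replicate 2, against 28.2 TPM in replicate 1. Fdft1 overlaps Ctsb on the opposite strand over 15.98% of its stretches, and Ctsb had 209 TPM in replicate 2 and 205 in replicate 1. Dhcr7 and Acly, the members with the smallest p, shared 0.126% and 0% on the same strand.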

How the data were processed

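Per the labels, total RNA of 2 adrenal glands was sequenced with ERCC spike-ins from directional libraries. The labels number the males differently in the sample characteristics but share 1 donor label, and the samples were taken as separate animals. The authors deposited expected counts and TPM per gene and transcript, per the file headers, made against mm10 and GENCODE M21, with 1 set of tables based on an alignment and 1 alignment-free. They ran these steps with programs, versions and strand settings not given in the sources used here. Overlaps with antisense genes are therefore uncertain, and the effect of CAST alleles on counting was not tested. Expected counts were rounded. Spike-ins took 1.06% of counts in each library, and 26248 rows named by numbers held 2 counts in replicate 2 and 3 in replicate 1; both were left out.

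The filterByExpr function of edgeR 4.0.16 under R 4.3.3 kept 18160 genes, and TMM gave the library sizes. Log2 ratios are replicate 2 over replicate 1 with a prior count of 0.5. Per-gene p-values come from exact two-sided binomial tests (smaller tail doubled) with Benjamini-Hochberg adjustment; they and the intervals cover counting error between these libraries only. The test and ratios were run on simulated counts with known folds and counting error alone. Such counts cannot show how the test behaves where animals or dissections differ. DESeq2 1.42.0 size factors, total and spike-in counts, the alignment-free tables, other thresholds and each replicate alone were alternatives, and some, such as protein-coding transcripts only, were chosen after seeing the data. All 30 members are named; the 3 related lists (sterol, prenyl and fatty acid genes) give their 3 highest and lowest genes and those past 2-fold, except 1 gene that is not reported here, while marker lists of cell types are given as counts and sums only. The members and lists were chosen with earlier results of these data known. Protein sequences were not used here.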

Additional observations from a re-analysis of the deposited data

How the results depend on the processing

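With 1 group and 2 libraries, no spread between conditions can be estimated, and depth limits only Idi2 and the low-count genes. No paired analysis was possible because the series has 1 group. The detected members were 29 under each setting but a limit of 5 TPM, which left 27. The median level moved to 25.5 TPM in the alignment-free tables and 37.9 TPM when TPM was rescaled over protein-coding genes, and ran from 11.6 to 15.98 TPM in each replicate alone. The count past the adjusted p and 2-fold was 0 under every library size and table tried and 2 at 1.5-fold. At any fold it ran from 11 without a filter to 16 with total or spike-in counts. The median log2 ratio was 0.11 with total gene counts, 0.10 with spike-in counts and 0.091 without Dhcr7 and Acly. Without length scaling, the log2 ratio was -0.55 for Srebf2 to Srebf1, 0.27 for Insig1 to Insig2 and 0.066 for Fdft1 to Fdps. The means of Insig1 to Insig2 and Fdft1 to Fdps were thus reversed, the latter in replicate 2 only (0.21, against -0.07 in replicate 1). On the same scale the log2 ratio was -0.092 for Ggps1 to Fdps and 2.45 for Lbr to Tm7sf2, which was 2.05 in the alignment-free tables. Over protein-coding transcripts only it was -0.76 for Srebf2 to Srebf1 and -1.17 for Fdft1 to Fdps. In each replicate alone it ran from -1.55 to -1.01 for Srebf2 to Srebf1, from -0.55 to 0.0058 for Insig1 to Insig2, reversed in replicate 2 alone, from 0.96 to 1.41 for Lbr to Tm7sf2, from -1.03 to -0.60 for Fdft1 to Fdps and from -1.08 to -0.79 for Ggps1 to Fdps. The cause of these shifts was not tested. Single genes crossed the adjusted p under spike-in counts (4 gained, Srebf2 lost), and none changed sign as a call. The ratio of Idi1 to Idi2 was not computed, as Idi2 had 0 counts.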
